A study of Homo sapiens with 6 samples.

Results

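The transcription factors that drive epithelial-mesenchymal transition (EMT) were followed in glioma cells depleted of the RNA-binding protein MSI1. The group comprised 9 genes, taken by name from a table of 58174 genes. These were ZEB1, ZEB2, SNAI1, SNAI2, SNAI3, TWIST1, TWIST2, PRRX1 and FOXC2. Of these, 5 were expressed highly enough to be tested, among 15069 tested genes, and 4 fell below the filter on low values.

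All libraries were polyA RNA-seq of KNS42, an established line derived from a pediatric glioblastoma, grown in serum-containing medium and harvested 72 h after transfection. The siC group received a control siRNA (n = 3 libraries) and the siMSI1 group received siRNA against MSI1 (n = 3 libraries). The line is 1 cell line, and the labels number the libraries without saying whether they came from separate cultures, so p-values measure only the spread between these libraries, which may be technical.

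EMT is a program in which cells lose junctions and apical-basal polarity and gain motility. ZEB and SNAI proteins are zinc-finger repressors that bind E-boxes in promoters of epithelial genes such as CDH1, which encodes E-cadherin. TWIST proteins are basic helix-loop-helix (bHLH) factors that bind DNA as dimers with E-proteins, while ID proteins capture E-proteins in dimers that do not bind DNA. PRRX1 is a homeobox factor and FOXC2 a forkhead factor of the mesenchyme. In glioma the parental cell is not epithelial, and the same factors are discussed in relation to invasion and a mesenchymal tumor state.

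ZEB1 and ZEB2 mRNAs are textbook targets of the miR-200 family, which pairs through its seed. The mature sequences from RefSeq are shown with the seed, bases 2 to 8, in capitals, since the family splits into a pair of seed groups.
hsa-miR-200b-3p: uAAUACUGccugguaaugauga
hsa-miR-200c-3p: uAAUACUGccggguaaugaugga
hsa-miR-200a-3p: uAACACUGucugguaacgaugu
hsa-miR-141-3p: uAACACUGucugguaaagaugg

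The ZEB1 3′UTR (2540 bases) held 6 matches to the first seed, read as CAGTATT, and 3 to the second, read as CAGTGTT. The ZEB2 3′UTR (5370 bases) held 5 and 4. Among 11259 tested protein-coding genes with a 3′UTR, 19.96% held at least 1 CAGTATT and 0.0622% held 5 or more, and 21.9% held at least 1 CAGTGTT and 1.35% held 3 or more. Those 3′UTRs had a median length of 1356 bases, shorter than the 3′UTR of either ZEB gene, and the shares were not adjusted for length. SNAI2 held 1 CAGTATT, and the other members held neither motif. Matches were searched on the transcript strand only, the motifs do not overlap, and miRNA levels were not analysed here. Sites of 30 bases are shown because they set the ZEB pair apart from the other members by sequence, with the seed match in capitals (GRCh38, transcript strand).
ZEB1, chr10:31527611-31527640 (+), CAGTATT: atctggcattgttttatcttatCAGTATTa
ZEB1, chr10:31528024-31528053 (+), CAGTGTT: aggacagcaaaatcatcagaatCAGTGTTt
ZEB2, chr2:144389052-144389081 (-), CAGTATT: aggtgcccgcactaccatacatCAGTATTt
ZEB2, chr2:144389236-144389265 (-), CAGTGTT: tgcattatgcaaaaattttgtaCAGTGTTa

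MSI1 binds UAG-containing elements in 3′UTRs, so the trinucleotide was counted in the members. ZEB1 held 14.2 UAG per kb of 3′UTR, ZEB2 13.4, PRRX1 13.0 and TWIST1 11.3, around or above the median of 11.2 over the same protein-coding genes. FOXC2 (10.15), SNAI2 (9.93), SNAI3 (6.58), TWIST2 (4.12) and SNAI1 (2.41) lay below this median. The TWIST paralogs differed in this density, with 8 UAG in TWIST1 and 3 in TWIST2. Their 3′UTRs also differed in GC content, 36.4% and 48.2%. A tie between this density and the changes in level was not tested. A count of letters is a description and not a binding site.

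The MSI1 mRNA was measured first. Its level was 63.75, 61.9 and 66.9 FPKM (fragments per kilobase of gene, scaled to the library total) in the siC libraries and 12.05, 12.3 and 11.2 FPKM in the siMSI1 libraries. The siMSI1 libraries were all far below the siC libraries, with a log2 fold change of -2.43 (limma, adjusted p = 8.71e-06). Libraries held 13087025 to 18024080 reads on genes. KNS42 expressed the glial markers NES, VIM, SOX2, FABP7 and CD44, whereas S100B had 0 reads in each library. The 7 glial markers summed to 1489 to 1552 FPKM in siC and 1227 to 1329 FPKM in siMSI1. Most of this was VIM, also listed below as a mesenchymal gene, with means of 1035 FPKM in siC and 865.5 FPKM in siMSI1. Of the glial markers, the stem cell markers FABP7 (36.1 to 16.6 FPKM) and CD44 (84.8 to 61.9 FPKM) were called lower, and GFAP, an astrocyte filament (1.63 to 4.61 FPKM), was called higher. With 1 library left out FABP7 and GFAP stayed called in all 6 fits and CD44 in 1. Of 9 markers of other cell types, 2 keratins (KRT8 and KRT18) passed the filter and neither was called. The list summed to 22.4 to 25.98 FPKM in siC and 19.3 to 23.5 FPKM in siMSI1. Most of this was KRT18, with means of 23.1 FPKM in siC and 19.35 FPKM in siMSI1. The immune marker AIF1 was at 0 reads throughout and PTPRC reached at most 3 reads. CDH5, an endothelial cadherin, reached at most 22 reads in a library, and its mean was 0.0167 FPKM in siC and 0.166 FPKM in siMSI1, below the filter of the main test. PECAM1, another endothelial marker, reached at most 8 reads, with 0 to 0.0086 FPKM in siC and 0.0449 to 0.0699 FPKM in siMSI1. Neither of these 2 genes overlapped between groups, which was also so for 42.8% of all tested genes. With voom on genes of at least 10 reads CDH5 was called higher (limma, adjusted p = 0.0064) and PECAM1 was not (0.0158). The part of these markers in the results was not tested.

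In siMSI1 cells TWIST1 mRNA was higher than in siC cells, by a log2 fold change of 0.46, and it was the only one of the 5 tested members called. PRRX1, TWIST2, ZEB1 and ZEB2 did not pass the threshold, and SNAI1 was measured in few reads. A gene was called at a Benjamini-Hochberg adjusted p of at most 0.01 in limma, the false discovery threshold of the study. By this rule 11% of the tested genes were called, 5.83% lower and 5.15% higher. The 1 call among 5 members (20%) is too small a count to be told apart from this background. The median log2 fold change over the tested members was 0.20, and over all tested genes it was 1.46e-05.

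TWIST1 (ENSG00000122691, chr7:19020991-19117636, minus strand, GRCh38) is a bHLH factor of mesoderm and neural crest. It measured 11.6, 12.05 and 13.9 FPKM in the siC libraries and 17.2, 17.2 and 17.2 FPKM in the siMSI1 libraries. The lowest siMSI1 library lay above the highest siC library, and the siMSI1 libraries were nearly identical. The means were 12.5 ± 1.26 FPKM in siC and 17.2 ± 0.0153 FPKM in siMSI1 (SD, n = 3 each), 138% of the siC level. The log2 fold change was 0.46 ± 0.08 (SE, 95% interval 0.27 to 0.65) with an adjusted p of 0.0065 in limma. An exact permutation test of the group means gave p = 0.1, two-sided, the smallest that 3 against 3 libraries allow.

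The SD of TWIST1 in siMSI1 lies far below the counting error of a single library, 0.776 FPKM from a mean of 492 reads, so this spread is smaller than counting alone gives. The call was lost when siC replicate 1 (adjusted p = 0.0338 in limma), siC replicate 2 (0.0254), siMSI1 replicate 1 (0.0247), siMSI1 replicate 2 (0.0225) or siMSI1 replicate 3 (0.0122) was left out. It held without siC replicate 3, the highest siC library (adjusted p = 0.0054). The log2 fold change ran from 0.41 to 0.54 over these fits, so that its size varied little while its call was close to the threshold.

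TWIST2 (ENSG00000233608, chr2:238848032-238910534, plus strand), the paralog of TWIST1 known from dermis and other mesenchyme, measured 10.9, 11.2 and 13.5 FPKM in siC and 10.5, 12.02 and 12.9 FPKM in siMSI1. The groups overlapped almost fully. The log2 fold change was -0.01 with a 95% interval from -0.26 to 0.25 (limma, adjusted p = 0.973), and it changed sign under several of the alternatives. In siC cells the paralogs were at similar levels, and TWIST1 over TWIST2 was 1.06, 1.07 and 1.03. In siMSI1 cells the ratio was 1.64, 1.43 and 1.33. The ratios did not overlap between groups, and the mean log2 ratio differed by 0.47 (exact permutation test, p = 0.1, the smallest possible). As TWIST2 itself had a log2 fold change of -0.01, this ratio restates the change of TWIST1 and is no separate support.

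**Figure D1:**
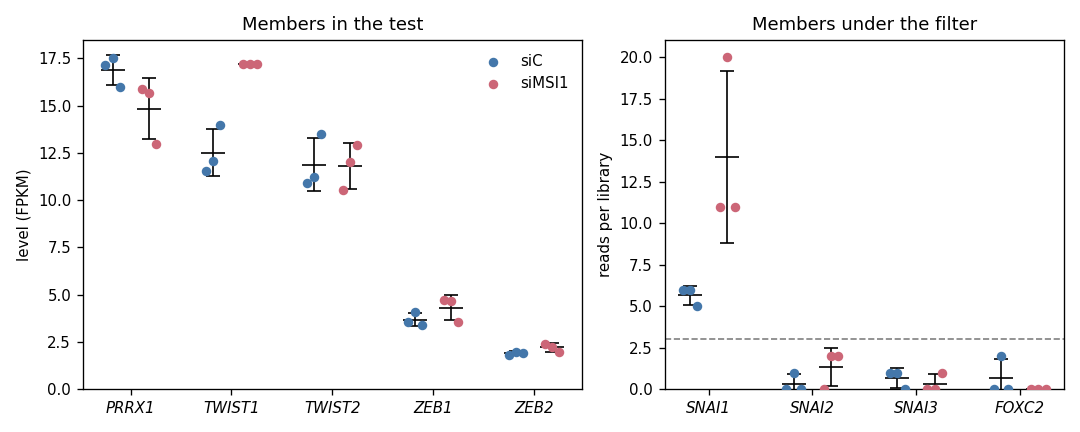
Level of the 9 EMT transcription factors in each library, with siC in blue and siMSI1 in red. Points are libraries, and horizontal lines with bars are the mean and SD of 3 libraries. The left panel gives FPKM of the 5 tested members, where the siMSI1 points of TWIST1 coincide at 17.2 FPKM above all siC points; the right panel gives reads per library of the 4 members under the filter, with a dashed line at the floor of 3 reads.

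PRRX1 (ENSG00000116132, chr1:170662728-170739421, plus strand), a homeobox factor of limb and craniofacial mesenchyme, had the highest level of the group in siC. It measured 17.1, 17.5 and 16.01 FPKM in siC and 15.9, 15.7 and 13.0 FPKM in siMSI1. The siMSI1 libraries lay just below the siC libraries, and the groups did not overlap. The log2 fold change was -0.19 with a 95% interval from -0.40 to 0.02 (limma, adjusted p = 0.173), so a difference was not called. Without siMSI1 replicate 3, the lowest library, it was -0.10 (limma, adjusted p = 0.343). With the replicate block it was -0.19, and the adjusted p in limma was 0.0534, also not a call. Groups without overlap were found for 2 of the 5 tested members, TWIST1 and PRRX1, against 42.8% of all tested genes, which is a share near the background.

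ZEB1 (ENSG00000148516, chr10:31318495-31529814, plus strand) is a zinc-finger homeobox repressor. It measured 3.54, 4.09 and 3.41 FPKM in siC and 4.72, 4.66 and 3.55 FPKM in siMSI1. The first 2 siMSI1 libraries lay above siC, and siMSI1 replicate 3 lay within it. The log2 fold change was 0.22 with a 95% interval from -0.10 to 0.53 (limma, adjusted p = 0.288). Without siMSI1 replicate 3 it was 0.35, with an adjusted p of 0.0617 in limma.

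ZEB2 (ENSG00000169554, chr2:144364364-144521057, minus strand), the other ZEB repressor and a regulator of neural crest and glial development, measured 1.79, 1.99 and 1.93 FPKM in siC and 2.41, 2.23 and 1.98 FPKM in siMSI1. The lowest siMSI1 library fell between the siC libraries. Its log2 fold change was 0.20 with a 95% interval from -0.09 to 0.49 (limma, adjusted p = 0.277). ZEB1 over ZEB2 was 1.98, 2.06 and 1.77 in siC and 1.96, 2.09 and 1.80 in siMSI1, with overlapping groups (exact permutation test of the log2 ratio, p = 0.8). The size of this ratio depends on the gene lengths used, 8650 bases for ZEB1 and 24970 for ZEB2. For both ZEB genes the interval includes 0 and also a change in either direction, so no similarity of the groups is shown.

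**Figure D2:**
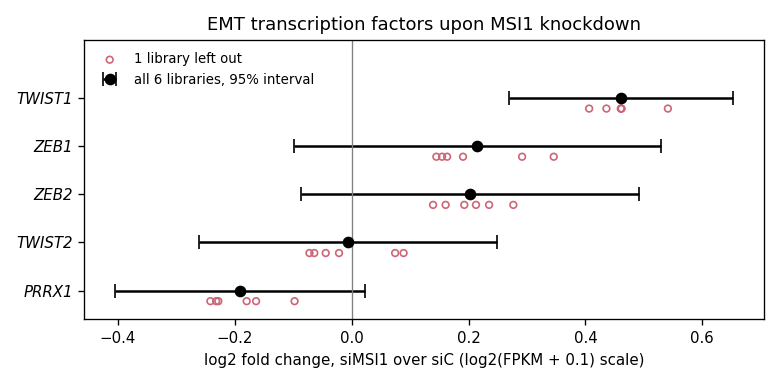
Log2 fold change of siMSI1 over siC for the 5 tested members, on the log2(FPKM + 0.1) scale. Black points with bars are the fit on all 6 libraries with its 95% interval, and open circles are the 6 fits with 1 library left out. The interval of TWIST1 runs from 0.27 to 0.65, while those of ZEB1, ZEB2, TWIST2 and PRRX1 include 0.

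SNAI1 (ENSG00000124216, chr20:49982980-49988886, plus strand) encodes the Snail repressor. It measured 0.238, 0.197 and 0.206 FPKM in siC and 0.443, 0.905 and 0.454 FPKM in siMSI1, and its mean over the 6 libraries, 0.407 FPKM, was below the filter of 0.5 FPKM. These values rest on 6, 6 and 5 reads in siC and 11, 20 and 11 reads in siMSI1. Every siMSI1 library was above every siC library, and siMSI1 replicate 2 was the highest. Groups without overlap were also found for 42.8% of all tested genes. The summed reads were 17 and 42, a rate ratio of 2.78 per read sequenced with an exact 95% interval from 1.55 to 5.21 that covers counting error only. The difference of the mean log2(FPKM + 0.1) was 1.10 (exact permutation test, p = 0.1, the smallest possible). Without the filter the adjusted p in limma was 0.0897, and with voom on genes of at least 10 recovered reads, a setting chosen after seeing the data, it was 0.0538, so neither of these settings called it. The pseudogene SNAI1P1, which can share reads with it, had 1 to 3 reads per library.

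The remaining members were near or at 0. SNAI2 (ENSG00000019549), which encodes Slug, had 0, 1 and 0 reads in siC and 0, 2 and 2 reads in siMSI1. SNAI3 (ENSG00000185669) had 1, 1 and 0 reads in siC and 0, 0 and 1 in siMSI1, and FOXC2 (ENSG00000176692) had 0, 2 and 0 reads in siC and none in siMSI1. All values lay under a floor of 3 reads per library, so no fold is given, and no difference was detectable at this depth. In bulk RNA fewer cells expressing a gene and less RNA per cell cannot be told apart.

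Levels per length ordered the group in siC as PRRX1, TWIST1, TWIST2, ZEB1, ZEB2 and SNAI1, followed by SNAI3, FOXC2 and SNAI2. TWIST1 and TWIST2 did not differ beyond their spread, at 11.6 to 13.9 and 10.9 to 13.5 FPKM, and the last 3 genes overlapped each other, while the other neighbours did not overlap. Among tested protein-coding genes the siC level of PRRX1 stood at percentile 73.6, TWIST1 at 65.7, TWIST2 at 64.1, ZEB1 at 30.01 and ZEB2 at 16.5. The order and percentiles depend on the gene lengths used. These were 24970 bases for ZEB2, 8650 for ZEB1, 8246 for PRRX1, 2033 for TWIST1 and 1878 for TWIST2. In summed siC reads ZEB2 (2259) stood above ZEB1 (1523), TWIST1 (1203) and TWIST2 (1053), and PRRX1 (6628) was highest. In siMSI1 TWIST1 became the highest member, at 17.2 FPKM against 13.0 to 15.9 FPKM for PRRX1. TWIST1 over PRRX1 was 0.745 ± 0.110 in siC and 1.17 ± 0.134 in siMSI1 (SD, n = 3 each). As neither gene overlapped between groups and their values moved apart, the ratio adds no test.

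Overlapping genes limit some of these values, because the libraries were strand-specific but whether the counting used strand is not given in the sources used here. ZEB1-AS1, which runs antisense to ZEB1, had 79 to 115 reads per library, and its log2 fold change was 0.13 (limma, adjusted p = 0.585). Inside ZEB1 the pseudogene SPTLC1P1 had 6 to 13 reads. SNAI3-AS1 had 35 to 69 reads, far more than SNAI3 itself. Inside PRRX1 the lincRNA Z97200.1 had 9, 8 and 2 reads in siC and 14, 14 and 19 reads in siMSI1, few beside at least 1537 reads of PRRX1. Antisense partners of TWIST1 (AC003986.2) and FOXC2 (FOXC2-AS1) had at most 1 read.

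The 3 tested protein-coding genes with the profile most like TWIST1, by the root mean square difference of log2(FPKM + 0.1) centred on its mean over the 6 libraries, were GGT7 (0.0373), EMILIN1 (0.0391) and DCUN1D3 (0.0397). GGT7 went from a mean of 20.1 to 26.8 FPKM, EMILIN1 from 0.651 to 0.927 FPKM, and DCUN1D3 from 2.29 to 3.03 FPKM. None of these was called (limma, adjusted p = 0.0101 for GGT7, 0.149 for EMILIN1 and 0.0366 for DCUN1D3).

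TWIST factors act with E-proteins and are held back by ID proteins, so the partners were examined next. Of 8 tested genes, TCF3 was called lower and ID1 and ID3 were called higher (37.5%, against 11% of all tested genes). TCF3, which encodes the E-proteins E12 and E47, measured 48.6, 44.7 and 48.95 FPKM in siC and 33.9, 31.9 and 35.96 FPKM in siMSI1. The groups were well separated, with a log2 fold change of -0.48 (limma, adjusted p = 0.0031). ID1 measured 67.1, 68.7 and 70.9 FPKM in siC and 114.9, 115.0 and 104.8 FPKM in siMSI1 (log2 fold change 0.69, limma, adjusted p = 5.5e-04). ID3 measured 264, 243.5 and 284 FPKM in siC and 386, 367 and 432 FPKM in siMSI1 (log2 fold change 0.58, limma, adjusted p = 0.0034). ID1 was called in all 6 fits with 1 library left out, ID3 in 3 and TCF3 in 2.

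The other partners did not pass the threshold. ID2 went from 62.1 to 59.1 FPKM (log2 fold change -0.07, 95% interval -0.24 to 0.09), and the E-proteins TCF4 and TCF12 had log2 fold changes of 0.15 and -0.08. The sum of ID1 to ID4 was 443 ± 20.7 FPKM in siC and 618 ± 19.8 FPKM in siMSI1, and the sum of TCF3, TCF4 and TCF12 was 59.3 ± 2.08 and 45.6 ± 1.25 FPKM. ID mRNA over E-protein mRNA was 7.48 ± 0.289 in siC and 13.5 ± 0.347 in siMSI1, and TWIST1 over TCF3 was 0.264 ± 0.0241 and 0.508 ± 0.0305 (SD, n = 3 each). These ratios set side by side genes or sums that already differed in opposite directions, so they are descriptions with no test. These are mRNA levels, and protein was not analysed here.

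**Figure D3:**
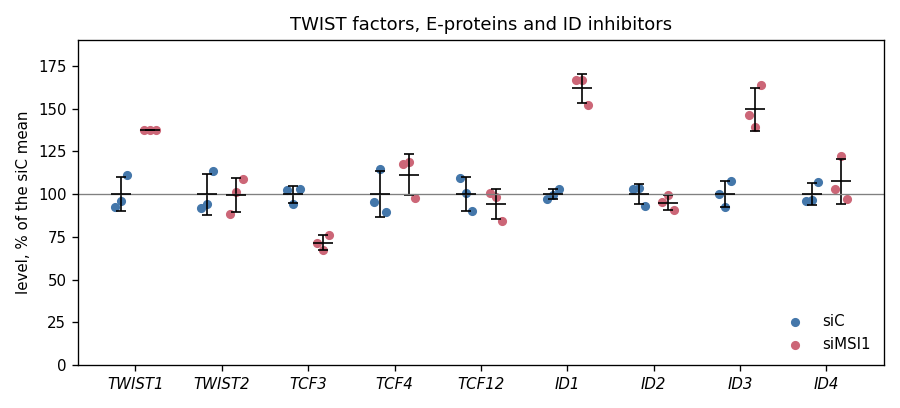
Levels of TWIST1, TWIST2, the E-protein genes TCF3, TCF4 and TCF12, and ID1 to ID4 in each library as percent of the siC mean of that gene, with siC in blue and siMSI1 in red. Points are libraries, and lines with bars are the mean and SD of 3 libraries. TWIST1, ID1 and ID3 lie above 100% in siMSI1 and TCF3 below, while TWIST2, TCF4, TCF12, ID2 and ID4 overlap siC.

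Epithelial genes are the classical targets that ZEB, SNAI and TWIST repress. Of 42 listed, 19 were tested, and the called genes were 21.05% of these, against 11% of all tested genes. The median log2 fold change was -0.11, with 4 genes called lower and 0 higher. KRT7, a simple-epithelium keratin, and ELF3, an epithelial ETS factor, had values on the other side of 0 (log2 fold change 0.86 and 0.67, limma, adjusted p = 0.0442 and 0.0582). With voom on recovered reads 4 genes were called lower and 2 higher, the 2 being KRT7 and ELF3, and CLDN3 was not called. DSP, which encodes the desmosomal plaque protein desmoplakin, measured 27.1, 25.35 and 23.8 FPKM in siC and 11.6, 10.75 and 11.3 FPKM in siMSI1. The siMSI1 libraries were all below the lowest siC library, with a log2 fold change of -1.17 (limma, adjusted p = 2.1e-04), called in all 6 fits with 1 library left out. LLGL2, a polarity protein, fell from 2.44 ± 0.153 to 1.08 ± 0.131 FPKM (log2 fold change -1.12). PKP2, a desmosomal plakophilin, fell from 4.38 ± 0.558 to 2.39 ± 0.293 FPKM (log2 fold change -0.85), and CLDN3, a tight junction claudin, from 2.80 ± 0.0577 to 1.84 ± 0.159 FPKM (log2 fold change -0.58).

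The call of CLDN3 was kept in 1 of the 6 leave-one-out fits, that of PKP2 in 3 and that of LLGL2 in 5. JUP, which encodes plakoglobin, was at 21.9 ± 1.02 and 21.4 ± 3.77 FPKM (log2 fold change -0.05, 95% interval -0.32 to 0.23), and KRT18 at 23.1 ± 1.80 and 19.35 ± 1.96 FPKM. Most of the list was barely expressed: 23 genes lay under the filter and 6 of these had at most 3 reads in every library. CDH1 had at most 4 reads and EPCAM at most 6. Counts for the list thus rest on the 19 genes that the cells expressed.

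The E-box bound by ZEB and SNAI factors, CAGGTG or CACCTG on the other strand, was searched in the 250 bases upstream of RefSeq transcription starts (GRCh38.p14). A match is not taken as a TWIST site. It was found in 15 of 23 epithelial genes with an entry (65.2%), in 3 of 18 mesenchymal genes (16.7%) and in 1 of 4 members, against 20.6% of 27305 genes of the table, where a gene counted if any of its starts had a match. Per promoter the shares were 48.5% for epithelial, 14.8% for mesenchymal and 17.5% for all genes. The epithelial list was drawn up as classical targets of these repressors, so its share is no independent support. Genes with an entry were not limited to the tested ones, and a link between matches and changes in level was not tested. CLDN3 had no match in this window, which says only that these letters are not there. The called genes LLGL2 and PKP2, and CDH1, had no entry and were not searched. The promoter of DSP, the epithelial gene with the largest fall among those called, held 2 matches, and is shown with them in capitals.
DSP, chr6:7541421-7541670 (+): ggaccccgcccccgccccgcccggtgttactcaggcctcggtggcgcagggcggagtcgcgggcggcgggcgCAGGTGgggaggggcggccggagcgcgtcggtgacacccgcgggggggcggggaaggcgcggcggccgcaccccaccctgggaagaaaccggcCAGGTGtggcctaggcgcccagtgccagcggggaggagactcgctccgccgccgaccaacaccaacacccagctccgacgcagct

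Among mesenchymal genes, 20 of 30 were tested, 4 were called higher and 2 lower, with a median log2 fold change of 0.17. The called genes were 30% of those tested, against 11% of all tested genes. The collagen gene COL5A2 rose from 35.4 ± 2.15 to 54.3 ± 1.18 FPKM (log2 fold change 0.62), SPARC, a matrix protein, from 118 ± 1.34 to 162 ± 8.56 FPKM (0.46), S100A4 from 18.65 ± 1.35 to 27.9 ± 2.24 FPKM (0.58) and the receptor kinase AXL from 3.14 ± 0.357 to 6.42 ± 1.16 FPKM (1.0). CDH6, a cadherin, fell from 85.7 ± 7.14 to 51.5 ± 2.67 FPKM (-0.73), and ACTA2, smooth muscle actin, from 63.5 ± 3.25 to 41.8 ± 5.45 FPKM (-0.61). With 1 library left out COL5A2 and CDH6 stayed called in all 6 fits, S100A4 in 4, SPARC in 3, AXL in 2 and ACTA2 in 1. VIM, which encodes the intermediate filament vimentin, was at 1035 ± 33.8 and 865.5 ± 62.1 FPKM (log2 fold change -0.26, limma, adjusted p = 0.0382), and CTGF, a secreted matricellular protein, at 132 ± 7.29 and 166 ± 4.11 FPKM (log2 fold change 0.33, adjusted p = 0.0103). The list thus held calls in both directions.

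**Figure D4:**
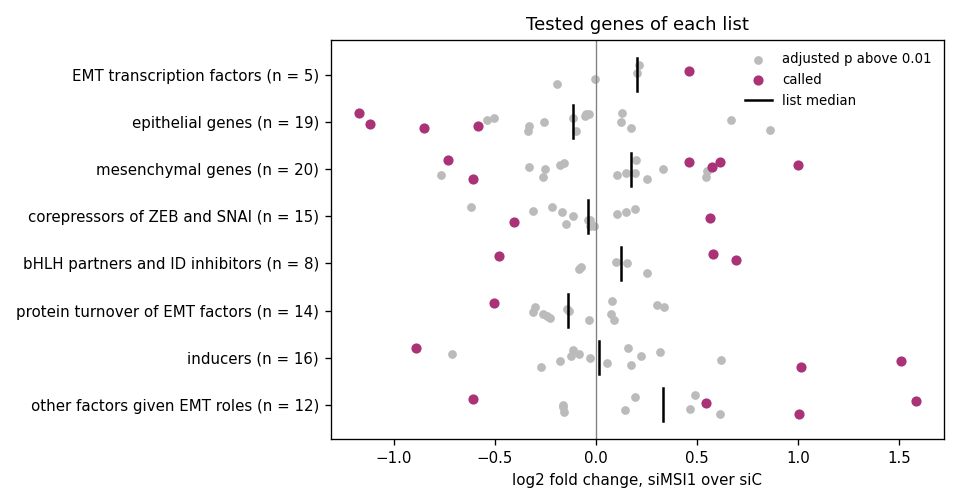
Log2 fold change of siMSI1 over siC for every tested gene of 8 lists, with the number tested in brackets. Purple points are called (limma, adjusted p of at most 0.01), grey points are not, and black lines are list medians; the vertical scatter within a list carries no value. The 4 called epithelial genes lie left of 0, with KRT7 and ELF3 as the rightmost uncalled ones, and the called mesenchymal genes lie on both sides.

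The corepressors that ZEB and SNAI recruit were mostly without a call. Of 15 tested, EZH2 was lower and PRMT5 higher (13.3%, against 11% of all tested genes), with a median log2 fold change of -0.04. EZH2, the histone H3 methyltransferase of the Polycomb complex, went from 22.35 ± 1.64 to 16.8 ± 0.706 FPKM (log2 fold change -0.40, limma, adjusted p = 0.0081) and kept its call in 0 of the 6 leave-one-out fits. PRMT5, an arginine methyltransferase, went from 26.3 ± 2.93 to 38.8 ± 2.08 FPKM (log2 fold change 0.56, limma, adjusted p = 0.0043) and kept its call in 2 of these fits. At an adjusted p of at most 0.05 in limma, 4 corepressors were lower and 1 higher. HDAC1, a histone deacetylase, was at 40.9 ± 1.44 and 46.9 ± 1.85 FPKM, and SMARCA4, a chromatin remodeler, at 39.4 ± 1.58 and 38.4 ± 2.74 FPKM, neither called.

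SNAI and TWIST proteins are short-lived, and kinases and ubiquitin ligases set their turnover. Of 14 such genes tested, 1 was called (7.14%, against 11% of all tested genes). FBXL5, an F-box protein that targets SNAI1 and the iron regulatory protein IRP2, measured 18.35, 18.6 and 18.2 FPKM in siC and 12.8, 13.5 and 12.7 FPKM in siMSI1 (log2 fold change -0.50, limma, adjusted p = 0.0014). The groups were clearly apart. CTDSP1, a phosphatase, had a log2 fold change of -0.14 and CHEK1, a checkpoint kinase, of 0.07, and neither was called.

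Signals known to induce the factors moved in both directions, with 3 of 16 tested genes called (18.75%, against 11% of all tested genes). TGFBR2, the type II TGF-β receptor, measured 2.11, 1.75 and 1.74 FPKM in siC and 6.26, 4.87 and 5.43 FPKM in siMSI1, a log2 fold change of 1.51 (limma, adjusted p = 4.3e-04). TGFB3, a TGF-β ligand, rose from 1.96 ± 0.156 to 4.05 ± 0.145 FPKM (log2 fold change 1.01, limma, adjusted p = 7.3e-04). NOTCH1, a receptor, fell from 2.35 ± 0.108 to 1.22 ± 0.0740 FPKM (log2 fold change -0.89, limma, adjusted p = 0.0024), and it lost its call without siC replicate 1, 2 or 3. TGFBR1, the type I receptor that pairs with TGFBR2, was at 6.54 ± 0.881 and 3.98 ± 0.729 FPKM (log2 fold change -0.71, limma, adjusted p = 0.0134). It was not called in the main test, but was called lower with a filter of a mean of 1 FPKM (0.0093), with the replicate block (0.0023) and with voom (0.0011). TGFB1 was at 59.5 ± 4.90 and 74.4 ± 9.74 FPKM, STAT3 at 42.8 ± 1.26 and 48.4 ± 2.72 FPKM and YBX1 at 705 ± 32.9 and 825 ± 66.3 FPKM, none of them called.

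Other transcription factors given roles in EMT held 4 calls among 12 tested genes (33.3%, against 11% of all tested genes). Their median log2 fold change was 0.33. FOSL1, an AP-1 subunit, measured 11.5, 10.9 and 13.1 FPKM in siC and 37.9, 32.8 and 36.4 FPKM in siMSI1, a log2 fold change of 1.59 (limma, adjusted p = 2.1e-04). ETS1 rose from 2.60 ± 0.174 to 5.33 ± 0.543 FPKM (log2 fold change 1.01) and the homeobox gene MSX1 from 8.07 ± 0.810 to 11.8 ± 1.29 FPKM (0.55). SOX9, a factor of neural crest, glia and cartilage, fell from 22.2 ± 0.360 to 14.6 ± 0.833 FPKM (-0.61). FOSL1, ETS1 and SOX9 stayed called in all 6 leave-one-out fits and MSX1 in 0.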

How the data were processed

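polyA RNA of KNS42 cells was sequenced in 6 strand-specific libraries. Per the submitters' processing notes and the study's methods, the authors used cutadapt 1.14, HISAT2 2.1.0 (GRCh38), SAMtools 1.5, featureCounts 1.5.3 and edgeR 3.18.1, and deposited FPKM per gene and library. Columns of a log2 fold change, p-value and FDR that the authors deposited beside them were not used. Because FPKM times gene length was a whole multiple of 1 read (100% of values, tolerance 0.01 reads), reads per gene were recovered.

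limma 3.58.1 in R 4.3.3 (trend and robust moderation, no block) compared log2(FPKM + 0.1) where the mean FPKM reached 0.5 or more, and Benjamini-Hochberg adjustment covered every gene in the fit. The added value understates changes of low genes. Intervals on read counts cover counting error only. The pipeline was tested on simulated data.

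Named were all members, MSI1, from each list the called genes (all where at most 8) and the 3 with the highest mean FPKM, genes overlapping a member or antisense to it by name, and the 3 genes most like each called member. KRT7, ELF3, TGFBR1, PECAM1, TCF4, TCF12, ID4, CDH1, EPCAM, CDH5, PTPRC, AIF1, S100B and SNAI1P1 were named outside this rule, after their values were seen. The members and lists were chosen with earlier results of these data known. 3′UTRs came from GENCODE release 44. Alternatives were other added values, filters, scalings, moderation, voom on recovered reads, a replicate block, another threshold and each library left out.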

Additional observations from a re-analysis of the deposited data

How the results depend on the processing

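PRRX1, ZEB1 and ZEB2 kept their direction and stayed uncalled under all alternatives. TWIST1 kept its direction under all of them and lost its call with no filter and with plain moderation (log2 fold change 0.46 in both, adjusted p = 0.0215 and 0.0211 in limma), and in 5 of the 6 leave-one-out fits (0.41 to 0.54 over the 6). With no filter 29846 genes were tested. TWIST2, near 0, changed sign with median centring (0.0058), quantile normalization (0.0111), voom (0.0001) and voom with at least 10 reads (0.0002), and ran from -0.0722 to 0.0889 with a library left out. The difference of SNAI1 was 0.39 in place of 1.10 with an added value of 1.

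Members called numbered 0 with no filter, 0 with plain moderation and 0 to 1 with a library left out. Epithelial calls were 2 with no filter, 6 under both voom settings (4 lower and 2 higher, KRT7 and ELF3), 7 at an adjusted p of 0.05 (6 lower and 1 higher, KRT7) and 1 to 4 with a library left out. Mesenchymal calls were 3 with no filter, 2 with plain moderation, 10 with voom, 10 with voom on at least 10 reads, 10 at 0.05 and 2 to 9 with a library left out. Corepressor calls were 0, 0, 4, 5 and 5 in the same order, and 0 to 1 with a library left out. bHLH partner and ID calls were 1 with no filter, 1 with plain moderation and 1 to 3 with a library left out. Turnover calls were 3 at 0.05 and 0 to 1 with a library left out, inducer calls 6 with voom on at least 10 reads and 5 at 0.05, and other factors 7 at 0.05. Apart from the number of genes tested or the threshold itself, the cause was not tested.

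Over all genes, calls numbered 1655, with 792 under no filter, 847 with plain moderation, 2690 with voom, 2843 with voom on at least 10 reads (chosen after seeing the data) and 517 to 1603 with a library left out, the fewest without siC replicate 1. With the replicate block 2250 genes and 5 inducers were called, and no member changed its call. The replicate numbers were not taken as pairing in the main test. Same-numbered libraries correlated at -0.07, 0.08 and 0.08 in their deviations from the group means. A correlation over many genes can miss pairing in some of them, so these values do not settle whether the numbers mark pairs. With the block the SE fell from 0.110 to 0.058 for TWIST2 and from 0.092 to 0.058 for PRRX1. It also fell for TWIST1 (0.0825 to 0.0681) and ZEB1 (0.136 to 0.0959), and for ZEB2 it went from 0.125 to 0.126. With 3 libraries a group, depth limits SNAI1, SNAI2, SNAI3 and FOXC2.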
